A study of Mus musculus with 12 samples.

Results

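The Bcl2 family was followed through 10 of its genes, listed by symbol: the anti-apoptotic Bcl2, Bcl2l1 and Mcl1, the effectors Bax and Bak1, and the BH3-only genes Bbc3, Pmaip1, Bcl2l11, Bid and Bik. Each was read from the row of its symbol in the count tables, 10 of 24015 gene rows, and all 10 passed the filter on low counts that left 14356 genes to test. The RNA came from mouse embryoid bodies, the aggregates that embryonic stem cells form in suspension culture, in 4 groups of 3 libraries, from 2 genotypes (control and Trim33-deficient) and 2 times of differentiation (day 2 and day 2.5). All lines were derived from embryos of an outbred strain, homozygous for a floxed Trim33 allele with a UbcCreERT2 transgene (a ubiquitin C promoter driving tamoxifen-dependent Cre), and were kept feeder-free in LIF and 2i beforehand. Trim33 encodes a nuclear factor that binds chromatin and works with the Smad proteins of TGF-beta signalling. It was deleted with 4OH-tamoxifen given on day 1 for 24 hours. The day of differentiation and the time since treatment therefore move together and cannot be told apart. The controls are labelled wildtype, and whether they received tamoxifen is not given in the sources used here. A difference between the genotypes therefore cannot be told apart from an effect of tamoxifen or of the active recombinase. The ubiquitin C promoter drives the recombinase broadly rather than in 1 cell type, and each library averages over all cells of its bodies.

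The Bcl2 family decides whether the outer mitochondrial membrane is opened, the committing step of the intrinsic pathway of apoptosis. Anti-apoptotic members hold the effectors Bax and Bak1 in check. BH3-only members carry damage and stress signals, some by binding the anti-apoptotic proteins and some by activating the effectors directly. Once the effectors form pores, cytochrome c leaves the mitochondria and caspases are switched on through Apaf1. Pluripotent mouse cells are known to sit close to this threshold, and cells are normally removed by apoptosis as the early embryo leaves pluripotency.

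Libraries held 10066338 to 16529627 counts assigned to genes. Levels are given in CPM, read counts relative to library size, scaled by the trimmed mean of M values (TMM) method, and 3 counts, taken as the floor of detection, equalled 0.179 to 0.318 CPM. Rn45s, the ribosomal RNA precursor, made up 11.9% of gene counts in control replicate 2 of day 2.5 and 7.87% in Trim33-deficient replicate 1 of day 2, but 0.609 to 1.67% elsewhere. Control replicate 2 of day 2 also stood apart. In it Bnip3, a hypoxia-induced relative of the family, was at 77.3 CPM, against 32.8 and 41.2 CPM in the other day 2 controls. Control replicate 2 of day 2.5, already singled out by Rn45s, was also high in Bnip3, at 70.9 CPM. Trim33 itself was at 261 to 277 CPM in day 2 controls and 60.5 to 69.6 CPM in day 2 Trim33-deficient bodies. On day 2.5 it was at 239 to 264 and 54.4 to 62.8 CPM. It was thus 4.09-fold lower on day 2 (log2 -2.03 ± 0.06 SE, adjusted p = 1.00e-11) and 4.28-fold lower on day 2.5 (log2 -2.10 ± 0.06 SE, adjusted p = 6.35e-12). Whole-gene counts include any exons outside the deleted part. Adjusted p-values throughout are from edgeR's quasi-likelihood test with Benjamini-Hochberg adjustment over all genes tested, and a gene was called at an adjusted p under 0.05. The labels mention independent pairs of lines without saying which libraries form them, so p-values measure the spread between libraries, which may in part be technical.

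On day 2.5, 7 of the 10 members were called between genotypes, against 42.8% of all genes tested. Bcl2l1, Mcl1, Bax, Bbc3 and Bcl2l11 were higher in Trim33-deficient bodies (22.0% of all genes were called higher). Bak1 and Bik were lower (20.7% of all genes were called lower). Both sides of the family were therefore among the members that rose: of the 3 anti-apoptotic genes 2 rose, and so did 1 of the 2 effectors and 2 of the 5 BH3-only genes. On day 2 the calls were fewer, with Bcl2l1 and Bbc3 higher (5.94% of all genes) and Bak1 lower (3.90%), in all 3 of 10 members against 9.84% of all genes. The median log2 fold change over the 10 members was 0.12 on day 2 and 0.10 on day 2.5, beside -0.0049 and -0.01 over all genes. The share of the family that was called was not tested against that of all genes. Leaving out any of day 2 control replicates 2 and 3 or Trim33-deficient replicates 1, 2 and 3 left 1 call on day 2, that of Bbc3. Calls over all genes also fell in these fits, from 1413 to between 514 and 1345. The Rn45s share on day 2.5 was 1.08 to 1.67% in the Trim33-deficient libraries, between control replicates 1 and 3 (0.609 and 0.727%) and control replicate 2 (11.9%), and its part in these calls was not tested. Without both Rn45s-rich libraries 6 of the 7 day 2.5 calls stood, and that of Bik did not (adjusted p = 0.0790). In bulk RNA of whole bodies, a change in the number of cells that express a gene cannot be told apart from a change in RNA per cell.

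**Figure D1:**
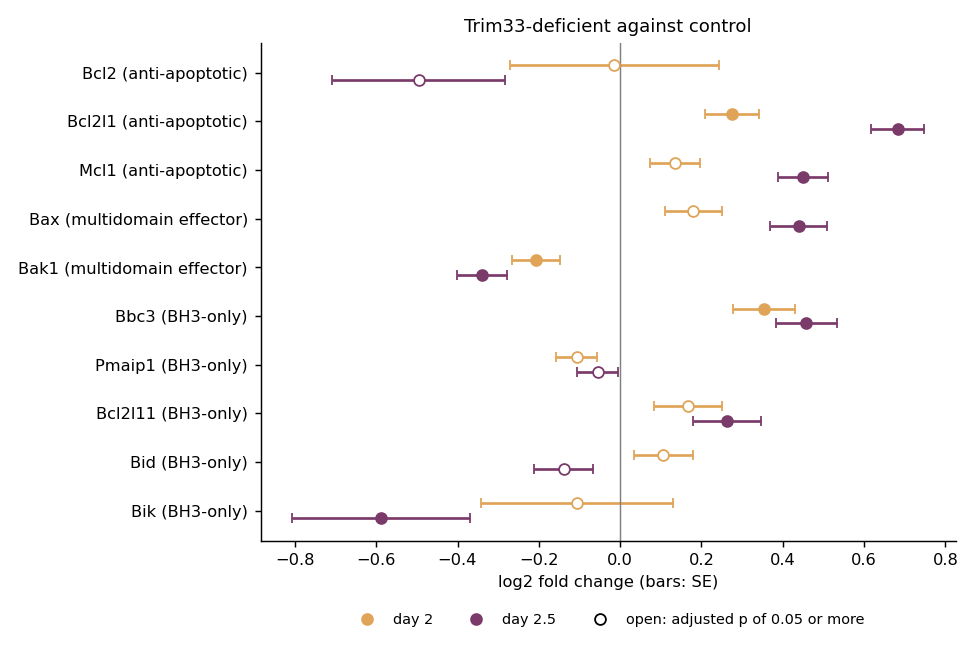
Log2 fold change (horizontal axis) of each Bcl2 family gene in Trim33-deficient against control bodies on day 2 and day 2.5, with bars for the SE and filled points for an adjusted p under 0.05. Filled points number 3 on day 2 and 7 on day 2.5, and Bak1 lies to the left of 0 on both days while Bcl2l1 and Bbc3 lie to the right.

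The promoters of the members called on day 2.5 are shown, since these are the members whose RNA differed. They are the 250 bases before a RefSeq start, in build GRCm38.p6, read 5′ to 3′ on the strand of the gene. Capitals mark a match to the FOXO core GTAAACA or to a p53 half-site, the motifs bound by the Foxo and p53 factors that are known to act on BH3-only genes. The table held promoters for 8 of the 10 members. Those of Pmaip1 and Bik are named only. Where a gene has several starts, 1 is shown: for Bbc3 and Bcl2l11 the one with a match, for Bcl2l1 the first. The other starts of these genes held no match to either motif, nor did the windows of Bcl2 and Bid, which are not shown.
Bcl2l1 (start 1 of 3, chr2:152828490-152828739, minus strand): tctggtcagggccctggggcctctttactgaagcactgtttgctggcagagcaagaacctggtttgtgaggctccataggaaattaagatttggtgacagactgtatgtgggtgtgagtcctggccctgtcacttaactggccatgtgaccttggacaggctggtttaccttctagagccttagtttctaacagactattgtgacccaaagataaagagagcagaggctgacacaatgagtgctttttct
Mcl1 (1 start, chr3:95658471-95658720, plus strand): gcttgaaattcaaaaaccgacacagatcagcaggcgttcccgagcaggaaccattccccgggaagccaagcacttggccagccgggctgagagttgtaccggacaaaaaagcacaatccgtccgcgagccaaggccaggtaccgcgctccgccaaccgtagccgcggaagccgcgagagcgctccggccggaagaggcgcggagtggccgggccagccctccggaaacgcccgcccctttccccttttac
Bax (1 start, chr7:45466899-45467148, minus strand): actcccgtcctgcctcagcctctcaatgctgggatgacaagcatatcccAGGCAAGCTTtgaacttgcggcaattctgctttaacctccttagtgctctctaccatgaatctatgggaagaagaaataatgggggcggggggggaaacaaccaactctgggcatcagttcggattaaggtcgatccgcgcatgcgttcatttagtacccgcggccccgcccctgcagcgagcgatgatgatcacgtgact
Bak1 (1 start, chr17:27028628-27028877, minus strand): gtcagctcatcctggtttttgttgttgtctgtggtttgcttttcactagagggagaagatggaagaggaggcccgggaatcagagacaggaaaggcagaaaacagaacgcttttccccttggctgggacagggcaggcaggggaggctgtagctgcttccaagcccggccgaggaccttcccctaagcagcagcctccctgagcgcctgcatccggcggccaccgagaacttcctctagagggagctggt
Bbc3 (start 2 of 3, chr7:16310011-16310260, plus strand): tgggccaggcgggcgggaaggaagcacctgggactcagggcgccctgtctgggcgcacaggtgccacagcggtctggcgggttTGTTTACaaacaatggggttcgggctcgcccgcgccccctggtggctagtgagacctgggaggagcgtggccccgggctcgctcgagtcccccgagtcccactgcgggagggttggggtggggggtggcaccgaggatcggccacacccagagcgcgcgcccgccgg
Bcl2l11 (start 1 of 2, chr2:128125788-128126037, plus strand): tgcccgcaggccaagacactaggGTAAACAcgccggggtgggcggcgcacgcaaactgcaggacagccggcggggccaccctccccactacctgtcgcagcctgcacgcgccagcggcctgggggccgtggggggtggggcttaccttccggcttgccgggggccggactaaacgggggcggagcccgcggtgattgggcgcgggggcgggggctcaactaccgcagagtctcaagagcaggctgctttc

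Searched on both strands, the FOXO core was present in Bbc3, 167 bases before its second start, and in Bcl2l11, 227 bases before its first, counted from the first base of the match. It was present in 3.17% of 32851 promoter windows of the same length. That share is per window, whereas Bbc3 had 3 windows searched and Bcl2l11 had 2. The bases that follow each start were also sought in the transcripts of the GENCODE M21 annotation. They were found for every start of Bcl2l1, Bax, Bak1, Bcl2l11 and Bid, but for no start of Bbc3, Mcl1 or Bcl2. The p53 half-site was present in Bax, 201 bases before the start, and in 7.13% of all windows. The SMAD box CAGAC is a short motif bound by the Smad proteins of TGF-beta signalling and is not marked by capitals. It was found at start 1 of Bcl2l1, in Bak1, at starts 1 and 2 of Bbc3 and at start 2 of Bcl2l11. It was absent from the other starts of these genes and from Bcl2, Mcl1, Bax and Bid. The windows of Bbc3 start 1 and Bcl2l11 start 2 are not shown. The SMAD box was also in 42.2% of all windows. No member's window held the STAT motif TTCNNNGAA, present in 7.02% of all windows. These motifs were chosen after the members' values had been seen, some windows overlap, and a match describes letters only.

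Among the anti-apoptotic genes, Bcl2l1 had the widest separation between genotypes. Its main product Bcl-xL guards the mitochondrial membrane and is known to protect differentiating cells. On day 2 it stood at 60.7, 53.3 and 57.9 CPM in the controls and 69.4, 69.0 and 69.7 CPM in the Trim33-deficient libraries. By day 2.5 the controls were at 57.0, 48.8 and 56.9 CPM and the Trim33-deficient libraries at 88.8, 85.7 and 87.3 CPM. Every Trim33-deficient library was above every control on both days. The rise was 1.21-fold on day 2 (log2 0.28 ± 0.07 SE, adjusted p = 0.0178) and 1.60-fold on day 2.5 (log2 0.68 ± 0.07 SE, adjusted p = 1.67e-06). The day 2 call was lost without control replicate 2 or 3 (adjusted p = 0.0522 and 0.0541) or without any of the Trim33-deficient replicates 1, 2 and 3 (0.0555, 0.0509 and 0.0536). The day 2.5 call held under every alternative.

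Mcl1 encodes a short-lived protein that pluripotent cells and the early embryo depend on. On day 2 the controls were at 871, 932 and 971 CPM and the Trim33-deficient libraries at 1088, 983 and 974 CPM, which touch without overlapping. That difference did not pass (log2 0.13 ± 0.06 SE, adjusted p = 0.189). By day 2.5 the controls were at 769, 804 and 771 CPM and the Trim33-deficient libraries at 1129, 1097 and 975 CPM. Mcl1 was 1.37-fold higher there (log2 0.45 ± 0.06 SE, adjusted p = 3.93e-05), and the groups were well apart.

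Bcl2, the founding member of the family, was among the least expressed. On day 2 it was at 2.88, 1.93 and 2.05 CPM in controls and 1.91, 1.88 and 2.89 CPM in Trim33-deficient bodies, with no separation (log2 -0.01 ± 0.26 SE, adjusted p = 0.982). By day 2.5 the controls were at 4.86, 6.13 and 3.90 CPM and the Trim33-deficient libraries at 3.64, 3.07 and 3.69 CPM. All controls were above all Trim33-deficient libraries, yet the difference did not pass (log2 -0.50 ± 0.21 SE, adjusted p = 0.0704). It passed without control replicate 3 (adjusted p = 0.0382). In the GENCODE M21 annotation 6.09% of the exonic bases of Bcl2 overlap the antisense gene D630008O14Rik. That symbol has no row among those analysed here, and the strand setting of the counting is not given in the sources used here.

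**Figure D2:**
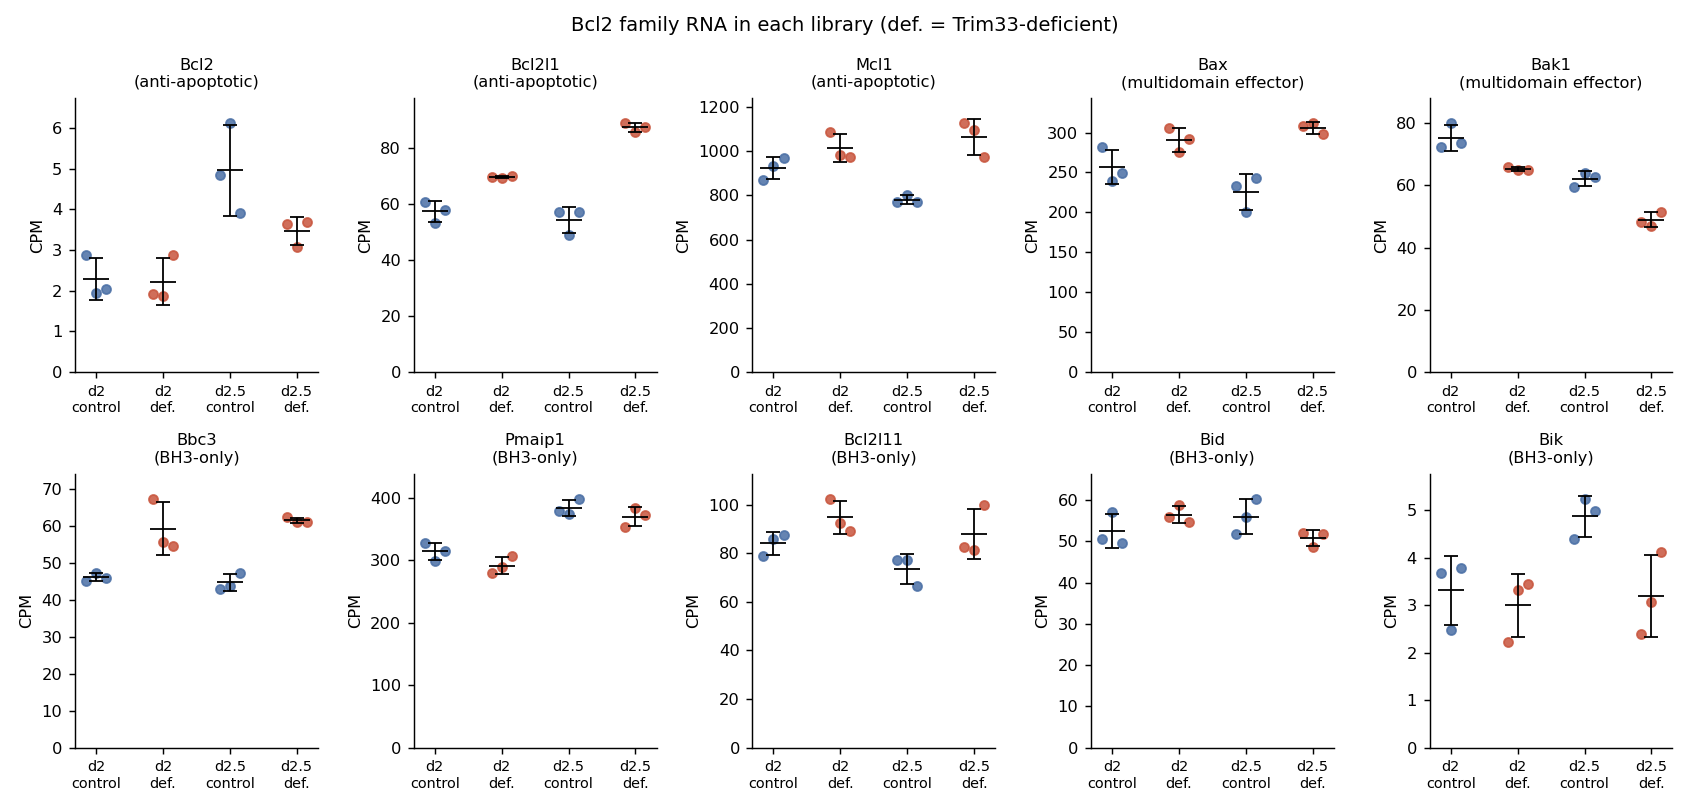
Level of each Bcl2 family gene in CPM (vertical axes, each from 0) in the 12 libraries by group, with 1 point per library and a line and bars for mean and SD. The day 2.5 Trim33-deficient libraries sit at 85.7 to 88.8 CPM for Bcl2l1, above all others, and at 47.0 to 51.6 CPM for Bak1, below all others.

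The 2 effectors moved in opposite directions on day 2.5. Bax, which shuttles from the cytosol to mitochondria when activated, was at 281, 240 and 249 CPM in day 2 controls and 305, 276 and 292 CPM in day 2 Trim33-deficient libraries. These ranges overlapped, and the difference did not pass (log2 0.18 ± 0.07 SE, adjusted p = 0.118). It passed without control replicate 1 of day 2 (adjusted p = 0.0425) or control replicate 2 of day 2.5 (0.0481). On day 2.5 the controls were at 233, 201 and 243 CPM and the Trim33-deficient libraries at 308, 312 and 298 CPM. The groups were apart, and Bax was 1.36-fold higher (log2 0.44 ± 0.07 SE, adjusted p = 0.000147). In GENCODE M21, 22.1% of the exonic bases of Bax are shared with Gm45808 on the same strand, a symbol with no row among those analysed here.

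Bak1 encodes the effector that resides on the mitochondrial membrane. It was at 72.4, 80.1 and 73.6 CPM in day 2 controls and 66.0, 65.0 and 64.9 CPM in day 2 Trim33-deficient libraries. On day 2.5 it was at 59.5, 64.1 and 62.7 CPM in controls and 48.4, 47.0 and 51.6 CPM in Trim33-deficient libraries. The groups did not overlap on either day. Bak1 was 1.15-fold lower on day 2 (log2 -0.21 ± 0.06 SE, adjusted p = 0.0373) and 1.27-fold lower on day 2.5 (log2 -0.34 ± 0.06 SE, adjusted p = 0.000343). The day 2.5 call held under every alternative. The day 2 call held in 11 of 22, with adjusted p between 0.0245 and 0.123. Leaving out control replicate 2 or 3 of day 2 gave 0.123 and 0.0854, any of Trim33-deficient replicates 1, 2 and 3 of day 2 gave 0.0904, 0.104 and 0.102, and day 2.5 control 3 or day 2.5 Trim33-deficient 2 gave 0.0514 and 0.0509. Leaving out both Rn45s-rich libraries gave 0.0775. The gene Ggnbp1 on the opposite strand covers 10.7% of the exonic bases of Bak1 and had 37 to 74 counts per library, against 622 to 1056 for Bak1. On day 2.5 Ggnbp1 had 37, 39 and 39 counts in controls and 57, 59 and 65 in Trim33-deficient libraries, while on day 2 the groups overlapped. The part of this overlap between the genes in the Bak1 difference was not tested.

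Because both effectors are counted in the same library, the ratio of their counts does not depend on the scaling between libraries. There were 3.89, 2.99 and 3.38 Bax counts per Bak1 count in day 2 controls and 4.63, 4.24 and 4.50 in day 2 Trim33-deficient bodies. The day 2.5 ratio was 3.91, 3.13 and 3.88 in controls and 6.36, 6.64 and 5.78 in Trim33-deficient bodies. Control means were close on both days, 3.42 ± 0.448 and 3.64 ± 0.441 (SD, n = 3), while those of Trim33-deficient bodies were 4.46 ± 0.199 and 6.26 ± 0.439. This ratio was chosen after the values had been seen and is given without a test.

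**Figure D3:**
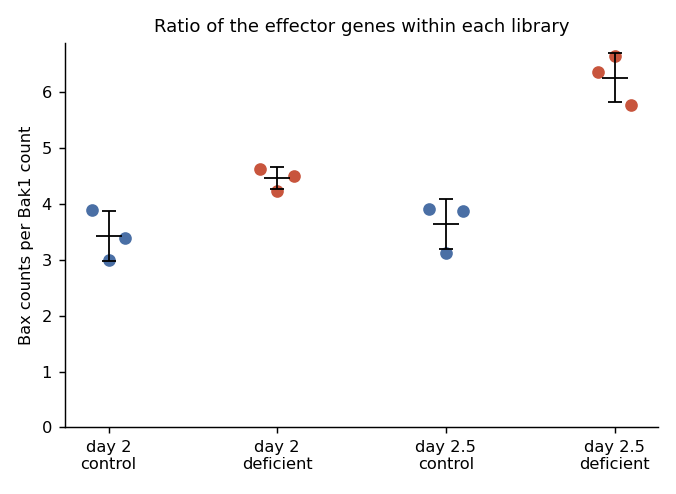
Counts of Bax per count of Bak1 (vertical axis, from 0) in each of the 12 libraries by group, with a line and bars for mean and SD. Control libraries lie between 2.99 and 3.91 on both days, day 2 Trim33-deficient libraries between 4.24 and 4.63, and day 2.5 Trim33-deficient libraries between 5.78 and 6.64.

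Of the BH3-only genes, Bbc3 rose on both days. It encodes Puma, a potent killer protein induced by p53 and by Foxo3. On day 2 it was at 45.1, 47.2 and 46.0 CPM in controls and 67.5, 55.8 and 54.6 CPM in Trim33-deficient bodies. On day 2.5 it was at 43.1, 43.9 and 47.3 CPM in controls and 62.3, 61.2 and 61.1 CPM in Trim33-deficient bodies. Every Trim33-deficient library exceeded every control, and the highest value of day 2 came from the Rn45s-rich library. Bbc3 was 1.28-fold higher on day 2 (log2 0.35 ± 0.08 SE, adjusted p = 0.00978) and 1.37-fold higher on day 2.5 (log2 0.46 ± 0.07 SE, adjusted p = 0.000167). Both calls held under every alternative.

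Pmaip1 encodes Noxa, another p53 target, which binds Mcl1. Unlike Bbc3 it was not called between genotypes on either day. It was at 328, 299.6 and 315 CPM in day 2 controls and 279, 289 and 306 CPM in Trim33-deficient bodies (log2 -0.11 ± 0.05 SE, adjusted p = 0.209). The day 2.5 values were 379, 375 and 399 CPM against 353, 384 and 373 CPM (log2 -0.06 ± 0.05 SE, adjusted p = 0.400). The genotypes overlapped on both days. The ratio of Bbc3 to Pmaip1 counts, chosen after the values were seen, was 0.116 ± 0.00260 in day 2.5 controls and 0.167 ± 0.00883 in day 2.5 Trim33-deficient bodies (SD, n = 3).

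Bcl2l11 encodes Bim, which binds all anti-apoptotic members and can activate the effectors. It was at 78.7, 85.9 and 87.7 CPM in day 2 controls and 102, 92.6 and 89.1 CPM in Trim33-deficient bodies, without overlap but without passing (log2 0.17 ± 0.08 SE, adjusted p = 0.232). On day 2.5 it was at 77.0, 77.1 and 66.4 CPM in controls and 82.7, 81.5 and 99.7 CPM in Trim33-deficient bodies. The 1.20-fold rise on day 2.5 passed (log2 0.26 ± 0.08 SE, adjusted p = 0.0198). It rested on the third replicates: without that of the controls the log2 fold change was 0.19 (adjusted p = 0.113), and without that of the Trim33-deficient bodies 0.16 (adjusted p = 0.126).

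Bid links death receptors to mitochondria after cleavage by caspase-8. Its day 2 levels were 50.7, 57.2 and 49.6 CPM in controls and 55.9, 58.8 and 54.8 CPM in Trim33-deficient bodies. On day 2.5 they were 51.8, 55.9 and 60.4 CPM and 52.2, 48.7 and 51.7 CPM. The genotypes overlapped on both days, and no difference passed (log2 0.11 ± 0.07 SE, adjusted p = 0.398 on day 2, and log2 -0.14 ± 0.07 SE, adjusted p = 0.132 on day 2.5). Without control replicate 1 of day 2.5, the later difference passed (adjusted p = 0.0496).

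Bik, a BH3-only protein of the endoplasmic reticulum, was expressed at a few CPM. It was at 3.68, 2.47 and 3.78 CPM in day 2 controls and 2.23, 3.31 and 3.44 CPM in Trim33-deficient bodies (log2 -0.11 ± 0.24 SE, adjusted p = 0.824). On day 2.5 the controls were at 4.40, 5.24 and 4.97 CPM and the Trim33-deficient libraries at 2.40, 3.07 and 4.11 CPM. The groups were apart on that day alone, and Bik was 1.50-fold lower (log2 -0.59 ± 0.22 SE, adjusted p = 0.0397). This call was lost without control replicate 2 or 3 (adjusted p = 0.0958 and 0.0993), without Trim33-deficient replicate 1 or 2 (0.166 and 0.101) and with DESeq2 (0.0573).

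Between day 2 and day 2.5 the controls changed in 4 members, against 16.1% of all genes tested. Bcl2 and Pmaip1 rose (8.20% of all genes were higher) and Mcl1 and Bak1 fell (7.91% were lower). Bcl2 went from a mean of 2.29 ± 0.519 to 4.96 ± 1.12 CPM (SD, n = 3), a 2.14-fold rise (log2 1.10 ± 0.23 SE, adjusted p = 0.00457) and the largest change of any member in a pairwise comparison. Pmaip1 went from 314 ± 14.1 to 384 ± 12.8 CPM, 1.22-fold (log2 0.29 ± 0.05 SE, adjusted p = 0.00137). Mcl1 went from 924 ± 50.2 to 781 ± 19.6 CPM, 1.18-fold lower (log2 -0.24 ± 0.06 SE, adjusted p = 0.0143). That call was lost without replicate 3 of day 2 (adjusted p = 0.0824) or of day 2.5 (0.0573). Bak1 went from 75.4 ± 4.16 to 62.1 ± 2.36 CPM, 1.21-fold lower (log2 -0.28 ± 0.06 SE, adjusted p = 0.00506). The other 6 were not called, Bik among them at log2 0.55 ± 0.22 SE (adjusted p = 0.106) with groups that did not overlap. Bax was not called (log2 -0.19 ± 0.07 SE, adjusted p = 0.0844) but passed without control replicate 2 of day 2 (adjusted p = 0.0390).

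In Trim33-deficient bodies 3 members were called over the same interval, against 16.0% of all genes. Bcl2l1 and Pmaip1 were higher (9.09% of all genes) and Bak1 lower (6.93%), and these 3 calls held under every alternative. Bcl2l1 went from 69.4 ± 0.343 to 87.2 ± 1.58 CPM (SD, n = 3; log2 0.33 ± 0.06 SE, adjusted p = 0.00291). Pmaip1 went from 292 ± 13.5 to 369.9 ± 15.4 CPM, 1.27-fold (log2 0.34 ± 0.05 SE, adjusted p = 0.000317). Bak1 went from 65.3 ± 0.591 to 49.0 ± 2.35 CPM, 1.33-fold lower (log2 -0.41 ± 0.06 SE, adjusted p = 0.000288). Bcl2 was at 2.22 ± 0.576 and then 3.47 ± 0.342 CPM, and this difference did not pass (log2 0.62 ± 0.24 SE, adjusted p = 0.0868). Pmaip1 and Bak1 were called with the same sign in both genotypes. These comparisons share no libraries, but they come from 1 fit with a shared estimate of spread. Which libraries came from related lines is not given.

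**Figure D4:**
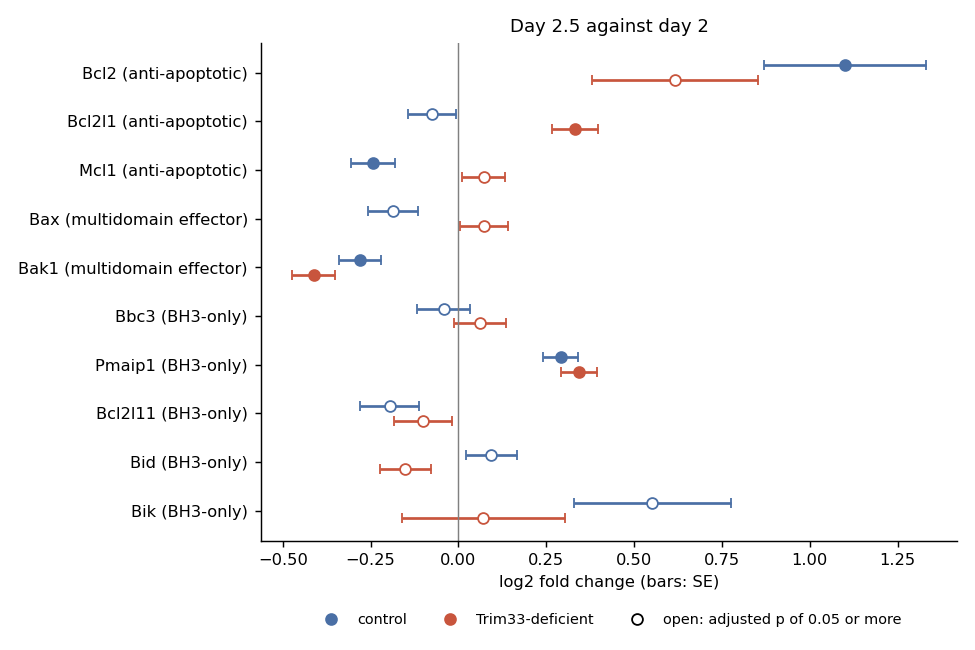
Log2 fold change (horizontal axis) of each Bcl2 family gene from day 2 to day 2.5, plotted separately for controls and for Trim33-deficient bodies, with bars for the SE and filled points for an adjusted p under 0.05. Bcl2 lies farthest to the right, at 1.10 in controls and 0.62 in Trim33-deficient bodies, and Bak1 lies left of 0 in both.

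Whether the genotype difference itself changed between the days was tested by the interaction, in which 1 member was called, against 4.01% of all genes (2.77% higher and 1.24% lower). Such a change cannot be told apart from a change with the time since tamoxifen. The difference in Bcl2l1 was larger on day 2.5 than on day 2 by 0.41 ± 0.09 SE on the log2 scale (adjusted p = 0.0270). This call was lost without any of 6 libraries (day 2 controls 1 and 3, day 2 Trim33-deficient 2 and 3, day 2.5 Trim33-deficient 1 and 2), with adjusted p between 0.0574 and 0.0815. Mcl1 lay just short (0.31 ± 0.09 SE, adjusted p = 0.0535). It passed without control replicate 2 of day 2 (adjusted p = 0.0453), Trim33-deficient replicate 1 of day 2 (0.0204) or Trim33-deficient replicate 3 of day 2.5 (0.0222). The values for the other members ran from -0.48 ± 0.33 SE for Bcl2 (adjusted p = 0.436) to 0.26 ± 0.10 SE for Bax (adjusted p = 0.147). For these the 2 days are not shown to differ in the main fit, nor to be alike. Without all 3 libraries that stood apart, Bax (adjusted p = 0.0231) and Bid (0.0454) passed.

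Compared per length of exon, in CPM per kilobase of the GENCODE M21 exons, the members covered a wide range. In day 2 controls Bax (296 ± 25.2) and Mcl1 (270 ± 14.7) headed the order and overlapped each other. Pmaip1 followed at 115. Bak1 (31.6), Bbc3 (25.4), Bid (24.0), Bcl2l1 (14.7) and Bcl2l11 (12.2) formed a middle range in which Bbc3 and Bid overlapped. Bik (2.25) and Bcl2 (0.250) were lowest. In day 2.5 controls Bak1 (26.0), Bid (25.6) and Bbc3 (24.7) could not be put in order. In day 2.5 Trim33-deficient bodies Bbc3 (33.9) stood above Bid (23.2), Bcl2l1 (22.4) and Bak1 (20.5), and Bid and Bcl2l1 overlapped. On this scale Mcl1 made up 92.6 to 95.1% of the summed level of the 3 anti-apoptotic genes in every library. The exons counted by the authors may differ from those of GENCODE M21.

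Beyond the 10 members, 57 tested genes of the death machinery were read from 6 lists, 1 of which holds further Bcl2 relatives. On day 2.5, 17 were higher and 15 lower in Trim33-deficient bodies, against 22.0% and 20.7% of all genes tested. On day 2, 10 were higher and 6 lower, against 5.94% and 3.90%. None of these shares was tested against that of all genes. Leaving out any 1 library or changing the processing gave 13 to 18 higher and 12 to 17 lower on day 2.5, but 3 to 11 higher and 0 to 6 lower on day 2. The day 2.5 values are therefore described first.

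Among 9 tested genes listed as transcriptional regulators of BH3-only genes, 6 were higher and 1 lower on day 2.5. Over all genes, 22.0% were higher and 20.7% lower. The list's median log2 fold change was 0.45, beside -0.01 over all genes. The list includes Mdm2 and Mdm4, which restrain p53, so neither its counts nor its median describe activators alone. Mdm2, a p53 target that marks p53 for degradation, was at 197, 162 and 182 CPM in controls and 456, 435 and 406 CPM in Trim33-deficient bodies. No library of one genotype came near the other, and the rise was log2 1.26 ± 0.10 SE (adjusted p = 1.56e-06). Mdm4, its partner in holding p53 in check, rose by log2 0.64 ± 0.07 SE (adjusted p = 9.03e-06). Foxo3, a forkhead factor that acts on Bbc3 and Bcl2l11, rose by log2 0.59 ± 0.08 SE (adjusted p = 3.20e-05). On day 2 Mdm2 was already higher (log2 0.61 ± 0.10 SE, adjusted p = 0.00352), as was Foxo3 (log2 0.43 ± 0.08 SE, adjusted p = 0.00493). The Mdm2 difference was larger on day 2.5 by 0.65 on the log2 scale (adjusted p = 0.0252 for the interaction). Whether this interaction call holds under the alternatives was not examined.

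Of 8 genes of the death receptor arm, 5 were higher on day 2.5 and none lower, against 22.0% and 20.7% of all genes, with a median of 0.35 beside -0.01. There were 4 higher without both Rn45s-rich libraries and 3 without control replicate 1 of day 2.5. Fas, a death receptor and p53 target, was near the floor of detection, at 1.18, 0.622 and 0.881 CPM in controls and 1.96, 2.19 and 1.85 CPM in Trim33-deficient bodies (log2 1.12 ± 0.27 SE, adjusted p = 0.00354). Tnfrsf10b, the mouse TRAIL receptor, rose by log2 0.47 ± 0.08 SE (adjusted p = 0.000251). Cflar, which blocks caspase-8 at the receptor, rose by log2 0.55 ± 0.12 SE (adjusted p = 0.00132), so the members that moved include an inhibitor of the arm. Cflar also rose on day 2 (log2 0.61 ± 0.13 SE, adjusted p = 0.00812).

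Downstream of the mitochondria, of 13 genes for the apoptosome, caspases and released factors, 2 were higher and 5 lower on day 2.5, with a median of -0.21 beside -0.01 over all genes. Of all genes, 22.0% were higher and 20.7% lower. Leaving out both Rn45s-rich libraries gave 1 and 4. Leaving out Trim33-deficient replicate 1 gave 1 and 3, and leaving out the third control or the third Trim33-deficient library gave 2 and 3. Leaving out the second of either group gave 1 and 4. Other settings gave more: 3 and 6 without control replicate 1 of day 2.5. Upper-quartile size factors, the compared libraries only and a replicate block each gave 2 and 6. Htra2, a mitochondrial protease released during apoptosis, fell by 0.41 ± 0.08 SE on the log2 scale (adjusted p = 0.000609). Apaf1, the scaffold of the apoptosome, rose by log2 0.29 ± 0.05 SE (adjusted p = 0.000613).

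Of 13 tested members among 18 further Bcl2 relatives, 1 was higher and 5 were lower on day 2.5, against 22.0% and 20.7% of all genes, with a median of -0.11 beside -0.01. Without the 3 libraries that stood apart, 2 were higher and 5 lower. Bcl2a1a, Bcl2a1b, Bcl2a1c, Bcl2a1d and Bcl2l10 did not pass the filter on low counts. Bok, an effector-like relative of Bax and Bak1, was at 27.6, 27.3 and 33.8 CPM in controls and 13.6, 11.9 and 14.9 CPM in Trim33-deficient bodies (log2 -1.13 ± 0.11 SE, adjusted p = 2.30e-06). Hrk, a BH3-only gene best known from neurons, was at 7.74, 8.88 and 6.74 CPM in controls and 21.5, 15.6 and 12.4 CPM in Trim33-deficient bodies (log2 1.09 ± 0.17 SE, adjusted p = 0.000164). Both log2 fold changes were larger in size than that of any of the 10 members on day 2.5. Bnip1 fell by 0.48 ± 0.11 SE on the log2 scale (adjusted p = 0.00202).

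Of 5 inhibitors of apoptosis, 2 were higher and none lower on day 2.5, against 22.0% and 20.7% of all genes. Birc3 rose by log2 0.65 ± 0.18 SE (adjusted p = 0.00939) and Birc6 by log2 0.44 ± 0.13 SE (adjusted p = 0.0179). The call of Birc3 was lost without Trim33-deficient replicate 1 of day 2.5 (adjusted p = 0.0551), and that of Birc6 without any of control replicates 2 and 3 and Trim33-deficient replicate 3 (0.0591, 0.0621 and 0.0555) or both Rn45s-rich libraries (0.0808). Birc2 did not pass (log2 -0.25 ± 0.10 SE, adjusted p = 0.0530) but was called lower in 10 of 22 alternatives. Without the 3 libraries that stood apart, 1 of the 5 was higher and 2 were lower. Of 9 mitochondrial partners and regulators of protein turnover, 1 rose and 4 fell, again against 22.0% higher and 20.7% lower over all genes. Usp9x, a deubiquitinase that stabilises Mcl1, rose by log2 0.42 ± 0.06 SE (adjusted p = 9.85e-05). Btrc, a ligase subunit that can mark Mcl1 for degradation, fell by 0.30 ± 0.06 SE on the log2 scale (adjusted p = 0.000903), and Vdac2, which brings Bak1 to mitochondria, fell by 0.17 ± 0.04 SE (adjusted p = 0.00457).

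**Figure D5:**
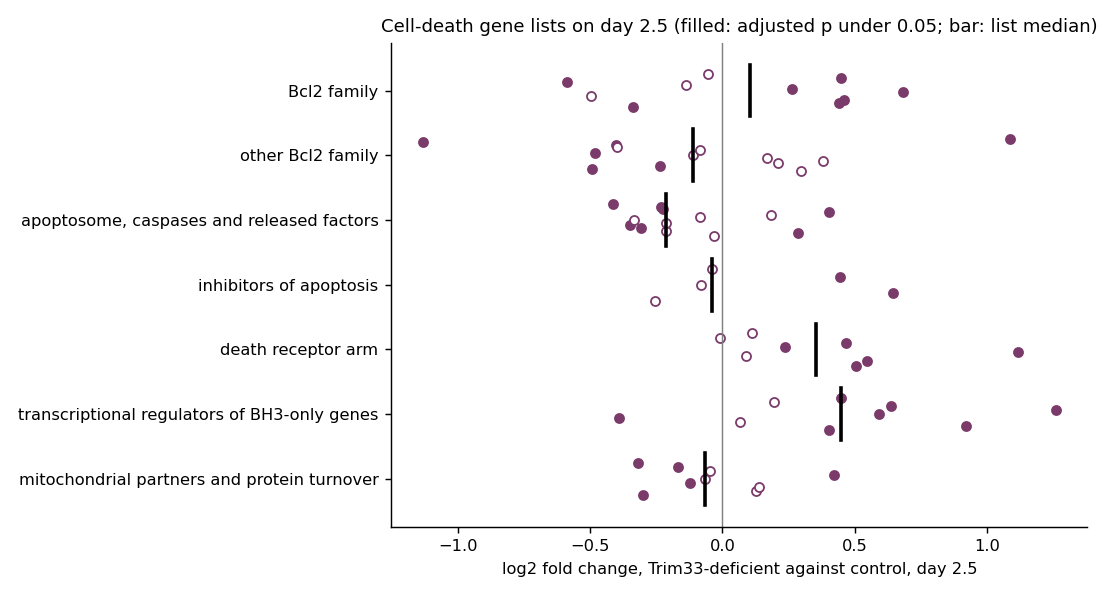
Log2 fold change (horizontal axis) on day 2.5, Trim33-deficient against control, of every tested gene in the Bcl2 family and 6 further lists, with filled points for an adjusted p under 0.05 and a vertical bar for each list's median. The medians lie at 0.10 for the Bcl2 family, 0.45 for the transcriptional regulators, 0.35 for the death receptor arm and -0.21 for the apoptosome list. The list of transcriptional regulators includes Mdm2 and Mdm4, which restrain p53.

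Markers of the cell types the bodies could hold also moved between groups. The 8 markers of pluripotent and epiblast cells, all tested, summed to 5631 to 6102 CPM in day 2 controls and 4542 to 4861 CPM in day 2 Trim33-deficient bodies, then to 4905 to 5532 and 3428 to 4099 CPM on day 2.5. The defining RNAs of the labelled embryonic cells were thus abundant in every library, and each Trim33-deficient library was below every control of its day. The 5 trophoblast markers (4 tested) summed to 6.22 to 7.21 and 11.9 to 18.9 CPM on day 2, and to 6.30 to 8.26 and 26.1 to 28.3 CPM on day 2.5, control first. The 7 fibroblast markers summed to 35.0 to 43.9 and 22.5 to 25.5 CPM on day 2.5, the 9 of primitive and visceral endoderm to 34.0 to 44.3 and 30.1 to 33.4 CPM, and the 5 of neuroectoderm to 130 to 147 and 115 to 129 CPM. The 5 blood markers summed to 10.7 to 13.1 and 8.57 to 11.7 CPM, with Hbb-bh1 at 0 in every library. The part of these marker differences in the Bcl2 family results was not tested.

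For the 3 members with the largest change, the genes of most similar profile were found by the root mean square distance between centred log2 CPM values over the 12 libraries, among 13485 genes. The nearest to Bcl2l1 were Smcr8 (0.0524), 4933426M11Rik (0.0626) and Dcun1d3 (0.0657). Those nearest to Bcl2 were Fras1 (0.170), Fat3 (0.197) and Pcsk2 (0.229). For Bik they were Ror1 (0.176), Jam3 (0.180) and Jakmip2 (0.186). For Bik, 18.6% of genes lay within 2 times the distance of the first, against 0.386% for Bcl2l1 and 0.793% for Bcl2.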

How the data were processed

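RNA of 12 embryoid body libraries was sequenced. The deposited values are raw counts of reads per gene symbol, which the authors made with STAR and HTSeq on mm9. Per the submitters' processing notes, DESeq was used too. Not given in the sources used here are versions, annotation and strand setting. Of all reads counted, 39.3 to 43.9% were assigned to a gene, 55.9 to 60.5% fell in no feature and 0.144 to 0.189% in several genes. Reads of the last 2 classes entered neither library sizes nor tests. In day 2.5 Trim33-deficient replicate 1, 27 gene names turned into dates were restored by row position.

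Counts were fitted with edgeR 4.0.16 (R 4.3.3): TMM factors, the filterByExpr filter, and 4 group means fitted robustly by quasi-likelihood (8 residual degrees of freedom, no replicate block), with Benjamini-Hochberg adjustment over 14356 genes. SE is the log2 fold change divided by the root of F. On simulated day 2.5 counts for 14252 genes, 34.7% of changes of 1.25-fold, 76% of 1.5-fold, 85.7% of 2-fold and 92% of 3-fold were recovered, with 11 false calls. Only 49 or 50 genes were changed at each fold, whereas 42.8% of genes were called in the real comparison. The adjustment is stricter where few genes change, so these shares do not give the recovery in the real data. Alternatives were other size factors and filters, DESeq2 1.42.0, a replicate block, the compared libraries only and leaving out each library. Leaving out the libraries that stood apart, or the Rn45s row, was added after seeing the data.

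The members and lists were chosen with earlier results of these data known. Named genes are Trim33, the members, the 3 genes of smallest adjusted p per list and day, and the 3 nearest profiles of the 3 members with the largest change. Of these, some list genes on day 2, 1 list gene on day 2.5 and values of some nearest genes are not reported here. Counts differed between replicates by more than sampling noise in every pair of libraries, so no library was counted as a repeat. Exon lengths and overlaps are from GENCODE M21 (GRCm38), a build other than that of the files, so no gene coordinates are given beyond the RefSeq promoter windows of GRCm38.p6. The floor of 3 counts covers counting error only.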

Additional observations from a re-analysis of the deposited data

Results flagged for a closer look

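The difference in Bcl2l1 between Trim33-deficient and control bodies was not the same on both days. It was larger on day 2.5 than on day 2 by 0.41 ± 0.09 SE on the log2 scale (adjusted p = 0.0270 for the interaction, edgeR's quasi-likelihood test, 3 libraries per group). The genotype difference was 0.28 ± 0.07 SE on day 2 and 0.68 ± 0.07 SE on day 2.5, with all Trim33-deficient libraries above all controls on each day. The adjusted p ran from 0.0038 to 0.0815 over 21 alternatives, and 15 of them kept the call. Day of differentiation and time since tamoxifen cannot be told apart here.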

How the results depend on the processing

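Of 18 calls of members over the 5 comparisons, 12 held under all 22 alternatives (21 for the interaction), and no called value reversed. Members called in the interaction numbered 1, and became 2 with no filter on low counts, 2 with DESeq2, 2 without both Rn45s-rich libraries, 4 without all 3 libraries that stood apart, and 0 to 2 with 1 library left out. Leaving out 1 library gave 1 to 4 members on day 2, 6 to 8 on day 2.5, 3 to 5 over time in controls and 3 to 3 over time in Trim33-deficient bodies. Over all genes, interaction calls went from 575 to 1967 without the 3 libraries and to 119 to 1217 with 1 library left out. Day 2 calls went from 1413 to 814 without both Rn45s-rich libraries and to as few as 514 with 1 library left out (Trim33-deficient replicate 1). Day 2.5 calls went from 6143 to between 4794 and 6571 with 1 library left out. Calls over time went from 2313 to 1384 in controls with the compared libraries only and to 1235 without replicate 3 of day 2. In Trim33-deficient bodies they went from 2300 to 3741 without the 3 libraries and to 1101 without replicate 2 of day 2. Values near 0 changed sign. Without both Rn45s-rich libraries the day 2 log2 fold changes became 0.067 for Bcl2, 0.035 for Bik and 0.047 for Xiap, and that of Bik over time in Trim33-deficient bodies -0.063. Without all 3 libraries they became 0.025 for Xiap and -0.0022 for Usp9x on day 2, and -0.061 for Bik over time. With 1 library left out they ran on day 2 from -0.27 to 0.18 for Bcl2, -0.28 to 0.032 for Bik and -0.092 to 0.044 for Xiap, from -0.17 to 0.23 for Bik over time in Trim33-deficient bodies, and from -0.0071 to 0.15 for Bcl2l11 in the interaction. The cause of these changes was not tested. Same-numbered replicates did not deviate together throughout (correlations -0.08 to 0.16 on day 2, -0.03 to -0.01 on day 2.5, 0.02 to 0.41 between days in controls and -0.02 to 0.17 in Trim33-deficient bodies). Between days, however, control replicates 1 and 2 correlated at 0.33 and 0.41 with their own number. With each other's number they were at -0.33 and -0.40, and replicate 3 was at 0.02 with its own. Values were centred within each group, so a positive correlation with 1 library requires a negative one with another. The negative values therefore add no separate evidence of a link. The main fit did not pair libraries by number, so its p-values take no account of any such link in controls. With a replicate block the interaction had 2 members called (Bcl2l1 and Mcl1) and 1169 genes, Bax was also called on day 2 (adjusted p = 0.0441) and over time in controls (0.0301), and no member lost a call.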
